A study of Homo sapiens with 4 samples.

Results

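TMEM69, SNN, CIAPIN1, GATAD2B, GTF2H1 and HDGFL3 are 6 genes in which the most used poly(A) site of 1 cluster moved by exactly the same number of nucleotides in both cell lines when l-lactate was given. They are 6 of 10841 coding genes in which poly(A) sites were listed. The genes were chosen by the measured shift of the dominant site in these same libraries, so the shifts are a description and nothing here tests them. All rows of the tables whose dominant site lay inside the same-strand span of 1 of these genes were taken, which gave 11 of 17627 clusters of poly(A) sites (PAS clusters, PACs). Of the 11, 6 carried the shift and are described most fully. The other 5 lay elsewhere in SNN, GATAD2B, GTF2H1 and HDGFL3. Among them, the GATAD2B PAC had 1 position only and could not move. A GTF2H1 PAC was above 5 TPM in both TE-1 libraries but not in both of KYSE30, and it kept its dominant site. The rest were below 5 TPM and were not compared.

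PAS-seq, a sequencing method for mapping where transcripts are cleaved and polyadenylated, was done in KYSE30 and TE-1, both established human esophageal squamous cell carcinoma lines. In each line, 1 library came from cells treated with l-lactate (20 mM, 24 h) and 1 from control cells, which the labels describe as given PBS. The titles and the methods of the study place the control libraries in KYSE30 and TE-1, although the cell line field of both control samples names another line. Each condition of a line had a single library, so the spread between cultures is unknown, no difference between conditions was tested, and every interval below is a 95% interval of counting error only, over reads that were amplified and carry no molecular identifiers.

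The libraries held between 7174991 and 10393799 tags, of which the listed PACs took 92.5% to 93.1%. Signal is given as TPM, the tags of a PAC scaled to 1e6 tags of its library, with no correction for length. Of the 11 squamous and epithelial marker genes looked up, KRT5, KRT14 and TP63 were listed in none of the 4 libraries, and KRT8, KRT18 and EPCAM were listed in all 4. EPCAM stood at 563 TPM in the KYSE30 control and at 30.7 in the TE-1 control, KRT8 at 2154 and 1004, and KRT18 at 293 and 175. The other 5 also differed between the lines. In the controls of KYSE30 and TE-1, KRT19 stood at 1699 and 0 TPM, CDH1 at 204 and 0, SOX2 at 168 and 0, KRT6A at 20.3 and 0, and KRT17 at 0 and 245. KRT6A stood at 40.4 TPM in KYSE30 with l-lactate. The markers of blood, endothelium and fibroblasts summed to 0 TPM in both KYSE30 libraries and to 12.5 and 8.50 TPM in the TE-1 control and l-lactate libraries, all of it from COL1A1 and DCN.

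An mRNA is cut and polyadenylated a short way downstream of a hexamer, most often AAUAAA, that the CPSF complex binds. UGUA motifs further upstream are bound by the CFIm complex, of which NUDT21 and CPSF6 are subunits, and favour cleavage at the site near them. Where a 3′ untranslated region (3′ UTR) holds several such sites, use of the upstream (proximal) one gives a short 3′ UTR and use of the downstream (distal) one a long 3′ UTR, with the same coding sequence. The dominant site of a PAC is the single position with the most tags in a library, and its share of the tags of the PAC is called the dominant share.

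The competing pairs of sites are shown first, since it is the same pair of positions that changed places in both lines. Each sequence below is the 30 nt of the reference genome (GRCh38) that end at the dominant site, in the sense of the gene and read as DNA. Capitals mark the poly(A) signal found in those 30 nt, with AATAAA taken before ATTAAA and ATTAAA before 10 rarer variants, and the copy nearest the site where there were several. A window in lower case throughout held none of these 12 hexamers.
TMEM69, control site: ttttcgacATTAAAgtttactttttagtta
TMEM69, l-lactate site: atcttgaaaattaaagATTAAAaatcccct
SNN, control site: tcAATAAAtgctgaatgacattcaagctga
SNN, l-lactate site: tatttacaataaatttcAATAAAatttgca
CIAPIN1, control site: ttcaggtATTAAActtgctgcatatcttga
CIAPIN1, l-lactate site: attttaccagtaAATAAAagttttcattga
GATAD2B, control site: aaaaaaaagccctagccatggatattgtga
GATAD2B, l-lactate site: gattgcatcagcatatatacAATATAccta
GTF2H1, control site: aaactttttatacttacccttttaactcta
GTF2H1, l-lactate site: ctttagaagaAATAAAagatgtttctccta
HDGFL3, control site: tttttacagAATAAAtttattggaatgtgt
HDGFL3, l-lactate site: tttaaAATAAActgttttcttttggaacta

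Of these 12 sites, 6 had AATAAA in the 30 nt, 3 had ATTAAA, 1 had a rarer variant and 2 had none. Over the dominant sites of the 8909 PACs with TPM above 5 in all 4 libraries, the shares by library were 65.9% to 66.2% for AATAAA, 15.9% to 16.0% for ATTAAA, 10.2% to 10.5% for a rarer variant and 7.57% to 7.73% for none. The upstream sites of the 6 pairs held AATAAA in 3 cases and ATTAAA in 2. Their downstream sites held AATAAA in 3 and ATTAAA in 1. TGTA, the DNA form of the CFIm motif, occurred in the 100 nt before 4 of 6 upstream and 3 of 6 downstream sites, against 59.2% to 59.3% of all dominant sites. No site of the 12 had 12 or more A in the 20 nt of genome after it, against 0.651% to 0.707% of all dominant sites. With so low a share over all sites, nothing is read from this. The highest number of A was 11, after the control site of TMEM69, whereas its l-lactate site had 4.

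In 4 of the genes the site dominant with l-lactate lay downstream of the control site, so that the longer 3′ UTR led. In the other 2 it lay upstream.

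TMEM69 encodes a transmembrane protein. Its only PAC runs over chr1:45694129-45694443, plus strand, in the last exon and just past it. The control site at 45694129 gives a 3′ UTR of 224 nt and the l-lactate site at 45694437, 1 nt past the annotated end of TMEM69-201, one of 532 nt, a shift of 308 nt downstream in both lines. The control site held 78 of 301 tags in KYSE30 (25.9%, interval 21.3% to 31.1%) and 110 of 344 tags in TE-1 (32.0%, 27.3% to 37.1%). With l-lactate the other site led, with 102 of 326 tags in KYSE30 (31.3%, 26.5% to 36.5%) and 73 of 298 tags in TE-1 (24.5%, 19.96% to 29.7%). The leading share was thus higher with l-lactate in KYSE30 and lower with l-lactate in TE-1, and the intervals overlapped in both lines. This pair makes the largest relative change in length of the 6, the long form being 2.38 times the short one. The segment between the sites has a GC content of 27.6% and holds 2 TGTA and no AATAAA.

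SNN encodes stannin, a small membrane protein studied for its link to the toxicity of organotin compounds. The shifted PAC lies at chr16:11679076-11679156, plus strand, at the end of the last exon, and its sites 11679082 and 11679137 are 70 and 15 nt short of the annotated end of SNN-201. The l-lactate site lay 55 nt downstream of the control site in both lines, which changes a 3′ UTR of 2756 nt to one of 2811 nt. The position that 90% of the tags reach lay past both sites, at 11679156 in the KYSE30 control and 11679151 in the other libraries. The control site held 76 of 221 tags in KYSE30 (34.4%, 28.4% to 40.9%) and 28 of 74 tags in TE-1 (37.8%, 27.6% to 49.2%). The l-lactate site held 93 of 241 tags in KYSE30 (38.6%, 32.7% to 44.9%) and 29 of 60 tags in TE-1 (48.3%, 36.2% to 60.7%). In both lines the leading share was higher with l-lactate, by less than the width of its interval. Both AATAAA copies of the downstream window lie in the 55 nt between the sites.

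CIAPIN1, also called anamorsin, carries electrons in the cytosolic assembly of iron-sulfur clusters, together with the reductase NDOR1. Its only PAC lies at chr16:57428169-57428552, minus strand, in exon 9 of 9. The control site 57428552 is 2 nt past the annotated end of a shorter transcript of the gene and gives a 3′ UTR of 618 nt. The l-lactate site 57428189 is 2 nt short of the end of CIAPIN1-201 and gives one of 981 nt, 363 nt more in both lines. Along the transcript, the position that 90% of the tags reach lay past both sites, at 57428176 in KYSE30 and 57428180 in TE-1. The control site held 177 of 399 tags in KYSE30 (44.4%, 39.6% to 49.3%) and 371 of 798 tags in TE-1 (46.5%, 43.1% to 49.96%). The l-lactate site held 190 of 384 tags in KYSE30 (49.5%, 44.5% to 54.5%) and 347 of 743 tags in TE-1 (46.7%, 43.1% to 50.3%). CIAPIN1 had the most tags of the 6 PACs, and in TE-1 its leading shares were 0.211 percentage points apart. The upstream site follows ATTAAA by 17 nt and the downstream site follows AATAAA by 12 nt.

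GATAD2B encodes a subunit of the NuRD complex, which joins chromatin remodelling with histone deacetylation. The shifted PAC lies at chr1:153806111-153806580, minus strand, in exon 11 of 11, and neither of its sites is near an annotated transcript end: the control site 153806572 is 1847 nt and the l-lactate site 153806111 is 1386 nt short of the end of GATAD2B-201. The shift of 461 nt downstream was the longest among the 6 genes, on a 3′ UTR of 3605 nt at the control site and 4066 nt at the l-lactate site. The control site held 108 of 245 tags in KYSE30 (44.1%, 38.0% to 50.3%) and 146 of 330 tags in TE-1 (44.2%, 39.0% to 49.6%). The l-lactate site held 109 of 241 tags in KYSE30 (45.2%, 39.1% to 51.5%) and 123 of 268 tags in TE-1 (45.9%, 40.0% to 51.9%). All 4 leading shares lay within 2 percentage points of each other. No poly(A) signal of the 12 was found in the 50 nt before the control site, and the only one before the l-lactate site, AATATA, ends 4 nt from it. The segment between the sites has the highest GC content of the 6, 55.3%.

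GTF2H1 encodes the p62 core subunit of TFIIH, the factor that opens DNA for transcription and for nucleotide excision repair. Its shifted PAC lies at chr11:18366814-18367044, plus strand, in exon 15 of 15, and its sites are its own outermost positions. Here the downstream site led in the controls. The control site 18367044 is 1 nt short of the annotated end of GTF2H1-201 and gives a 3′ UTR of 1175 nt, whereas the l-lactate site 18366814 is 1 nt past the end of GTF2H1-214 and gives one of 945 nt, 230 nt less in both lines. The control site held 34 of 79 tags in KYSE30 (43.0%, 32.7% to 54.0%) and 56 of 111 tags in TE-1 (50.5%, 41.3% to 59.6%). The l-lactate site held 47 of 111 tags in KYSE30 (42.3%, 33.6% to 51.6%) and 40 of 112 tags in TE-1 (35.7%, 27.4% to 44.9%). The site that led in the controls has its nearest signal, AGTAAA, 28 nt upstream, and the site that led with l-lactate has AATAAA 14 nt upstream.

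HDGFL3 encodes a protein related to hepatoma-derived growth factor. Its shifted PAC, at chr15:83137794-83138591 on the minus strand in exon 6 of 6, is the widest of the 6 at 798 nt. The control site 83138177 gives a 3′ UTR of 1093 nt and the l-lactate site 83138442 one of 828 nt, 265 nt less in both lines. Neither is the last position in use. Along the transcript, the position that 90% of the tags reach was 83137800 in every library, downstream of both sites. The annotated end of HDGFL3-201 is a further 10424 nt downstream of the control site. The control site held 25 of 90 tags in KYSE30 (27.8%, 19.6% to 37.8%) and 118 of 502 tags in TE-1 (23.5%, 20.01% to 27.4%). The l-lactate site held 29 of 119 tags in KYSE30 (24.4%, 17.5% to 32.8%) and 93 of 420 tags in TE-1 (22.1%, 18.4% to 26.4%). No position of this PAC held more than 27.8% of its tags in any library. Both sites follow AATAAA, by 15 nt for the control site and 19 nt for the l-lactate site.

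**Figure D1:**
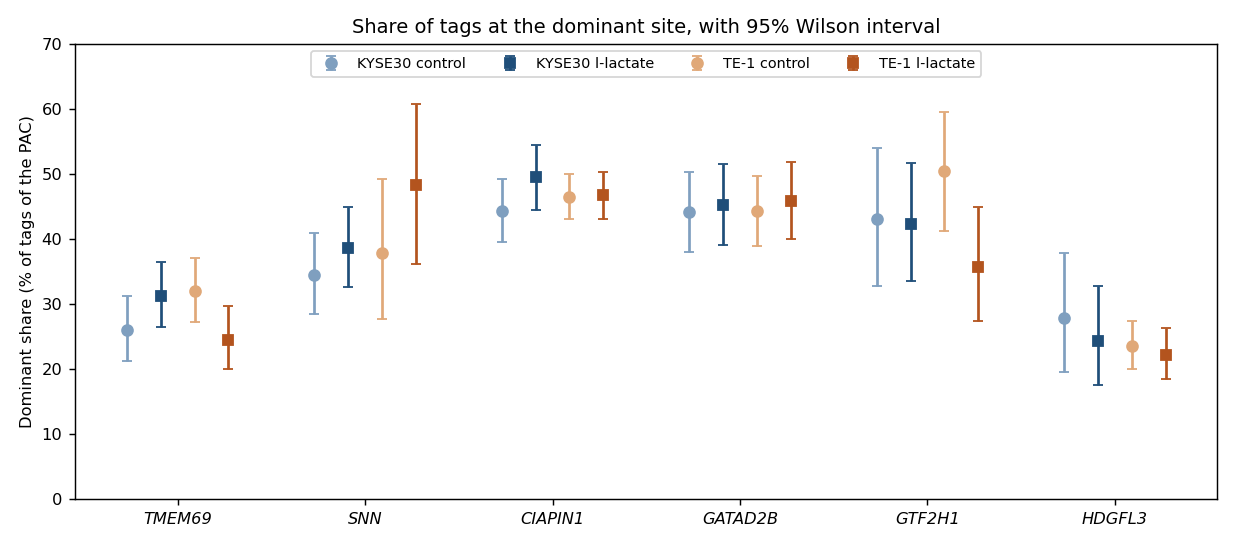
Share of the tags of the PAC that lay at its dominant site, in percent, for each of the 6 shifted PACs and 4 libraries. Points are single libraries and bars are 95% Wilson intervals of counting error. The position measured is the control site in circles and the l-lactate site in squares. The shares run from 22.1% in HDGFL3 to 50.5% in GTF2H1, and within each gene and line the circle and the square have overlapping intervals.

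Across the 6 shifted PACs the dominant share lay between 22.1% and 50.5%, and its median by library was 38.7% and 40.5% in the KYSE30 control and l-lactate libraries and 41.0% and 40.8% in those of TE-1. Over the 8909 PACs with TPM above 5 in all 4 libraries the median was 75.0% to 75.2%. The 6 PACs were 81 to 798 nt wide against a median of 11 nt, and 23.0% of the 8909 were as wide as the narrowest of them or wider. The dominant site can move by more than 24 nt only within a PAC wider than that, and the choice used the dominant sites, so neither property is independent of how the genes were chosen.

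The tables list the tags of the leading site only, and the share of its competitor has to be bounded. The competitor cannot hold more tags than the leader. Where it is the outermost position of the PAC and the 10% or 90% quantile falls on it, it holds at least 10% of the tags, a reading of the quantiles that held in 2173 of 2173 PACs of exactly 2 positions. By this reading the GTF2H1 sites each held at least 10% in all 4 libraries, the control sites of TMEM69 and CIAPIN1 still held at least 10% with l-lactate, and the l-lactate site of GATAD2B already held at least 10% in the controls. Both competitors were thus in use under both conditions in GTF2H1, and at least 1 site of the pair was in TMEM69, CIAPIN1 and GATAD2B.

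The same reasoning gives the smallest change in use that each swap requires, counting error aside. In KYSE30 the smallest changes ran from 0.696 percentage points in GTF2H1 to 5.37 in TMEM69, with a median of 3.80. In TE-1 they ran from 0.211 in CIAPIN1 to 14.7 in GTF2H1, with a median of 4.57. Of the 12 values, 2 exceeded 10 percentage points, both in TE-1, and over all shifted PACs 25 of 155 in KYSE30 and 28 of 134 in TE-1 did. The 2 were the fall of the GTF2H1 control site by at least 14.7 and the rise of the SNN l-lactate site by at least 10.5. Over all PACs with a shift of more than 24 nt this smallest change had a median of 3.78 percentage points among 155 PACs in KYSE30 and 4.55 among 134 in TE-1. In all 12 cases the intervals of the leading shares of control and l-lactate overlapped. These shares belong to different positions, so the overlap does not compare the use of a single site between conditions.

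The positions that 10% and 90% of the tags reach need not move when leading sites swap. They can stay at an outer position for as long as 10% of the tags lie there or beyond. That position need not be a competing site, and in HDGFL3 and SNN the one that 90% reach lay past both. The position that 10% of the tags reach along the transcript was the same in control and l-lactate libraries in 11 of 12 cases, and the position that 90% reach in 10 of 12. The exceptions, with upstream negative, were 1 nt in TMEM69 and -7 nt in GATAD2B, both in TE-1, and -5 nt in SNN in KYSE30. With the midpoint of these positions in place of the dominant site, no PAC of the 6 would be counted as shifted past 24 nt in either line. Over all PACs compared, 222 of 10849 in KYSE30 and 212 of 10769 in TE-1 would be.

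Shifts of more than 24 nt were found in 1.43% of 10849 PACs compared in KYSE30 and 1.24% of 10769 in TE-1, and an identical shift of that size in both lines in 12 of 8909, or 0.135%. The 12 include the 6 described here, and 8 moved downstream and 4 upstream. In each of the 12 both lines used the same pair of positions. Each of the other 6 was in 1 coding gene, apart from the MMP24OS PAC, which also lies in a read-through gene. FAM98B moved by 224 nt, IFT57 by 187 nt, ASAH1 by 128 nt and MMP24OS by 389 nt downstream, and the shift was -380 nt in MRFAP1 and -50 nt in MARCHF6, upstream being negative. Their dominant shares lay between 21.2% and 45.3%.

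**Figure D2:**
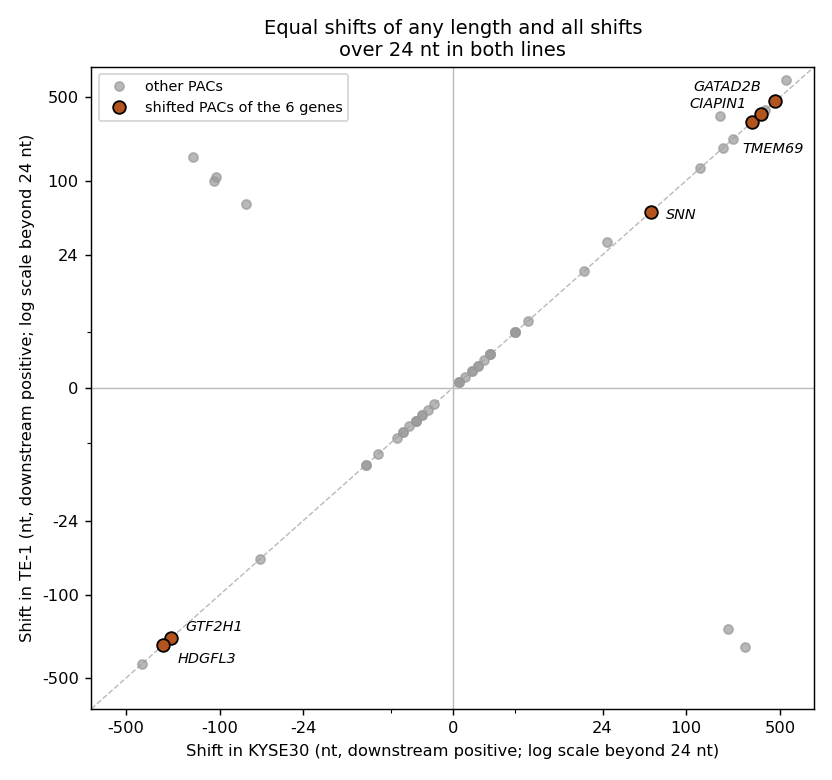
Shift of the dominant site in KYSE30 (x) against that in TE-1 (y), in nt with downstream positive and a log scale beyond 24 nt, for PACs with an identical shift of any length or with shifts over 24 nt in both lines. Orange points are the shifted PACs of the 6 genes and grey points are other PACs. The 6 lie on the dashed line of equal shifts, 4 downstream and 2 upstream, and 6 grey points lie where the lines moved in opposite directions.

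Of the 21 PACs that shifted by more than 24 nt in both lines, 15 went the same way and 6 opposite ways. Of the 15, 12 had the same length in both lines, and of the 6, 4 did. Among PACs that moved the same way in both lines, the pattern nearest to that of the 6 genes, by the difference in length between the lines, was a PAC outside coding genes with shifts of 26 and 31 nt downstream. FDX1 followed, with 552 and 691 nt, and then PAWR, with 180 and 349 nt. At the threshold of 24 nt, the shortest identical shifts counted were 50 nt in MARCHF6 and 55 nt in SNN, and the longest not counted was 21 nt downstream in P2RY11. In all, 31 PACs moved by the same 1 to 21 nt in both lines.

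The dominant site was the same in both controls and the same in both l-lactate libraries for all 6 genes. They were chosen by their dominant sites in these libraries, so nothing is read from this. Over all PACs, sites more than 24 nt apart were found in 2.06% of 9271 PACs between the controls and in 1.96% of 9417 between the l-lactate libraries.

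The choice did not use the levels of the genes. Changes with l-lactate are given first, as ratios of the summed TPM of all PACs in a gene. GTF2H1 went from 14.8 to 21.5 TPM in KYSE30, 1.45 times the control (1.13 to 1.87), and the values in TE-1 were 19.7 and 21.5 TPM (1.09 times, 0.887 to 1.34). HDGFL3 went from 12.1 to 16.6 TPM in KYSE30 (1.37 times, 1.03 to 1.82) and from 52.3 to 49.6 TPM in TE-1 (0.948 times, 0.832 to 1.08). CIAPIN1 went from 53.7 to 53.5 TPM in KYSE30 (0.996 times, 0.864 to 1.15) and from 76.8 to 87.7 TPM in TE-1 (1.14 times, 1.03 to 1.26). For these 3 the interval lay above 1 in 1 line each, which counts tags and not cultures. How many of all coding genes had such an interval was not worked out, so nothing is read from the number. A change in how many cells express a gene and a change in its RNA per cell cannot be told apart in such bulk libraries.

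TMEM69 stood at 40.5 and 45.4 TPM in the KYSE30 control and l-lactate libraries and at 33.1 and 35.2 TPM in those of TE-1. GATAD2B stood at 42.8 and 41.4 TPM in KYSE30 and at 37.6 and 36.8 TPM in TE-1. SNN stood at 33.0 and 36.8 TPM in KYSE30 and at 9.04 and 7.09 TPM in TE-1. The intervals of the ratios of these 3 genes held 1 in both lines. Past a log2 ratio of 0.5 with a pseudocount of 1, only GTF2H1 in KYSE30 was called, at 0.51, so 1 of 6 genes in KYSE30 and 0 of 6 in TE-1. Over all coding genes above 5 TPM in both libraries, 3.69% of 8700 were called in KYSE30 and 3.72% of 8574 in TE-1.

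Between the control libraries of the lines, HDGFL3 was 4.32 times as high in TE-1 as in KYSE30 (3.45 to 5.46) and SNN was 3.65 times as high in KYSE30 as in TE-1 (2.86 to 4.68). CIAPIN1 was 1.43 times as high in TE-1 (1.27 to 1.62). These 3 of the 6 differed by more than 0.5 on the log2 scale, against 53.1% of 7800 coding genes. In the l-lactate libraries each of the 3 differed in the same direction, 2.99 times (2.43 to 3.70) for HDGFL3, 5.19 times (3.91 to 6.99) for SNN and 1.64 times (1.45 to 1.86) for CIAPIN1. The equal shift was the rule that chose SNN and HDGFL3, so nothing is read from its presence at levels that stood several-fold apart.

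**Figure D3:**
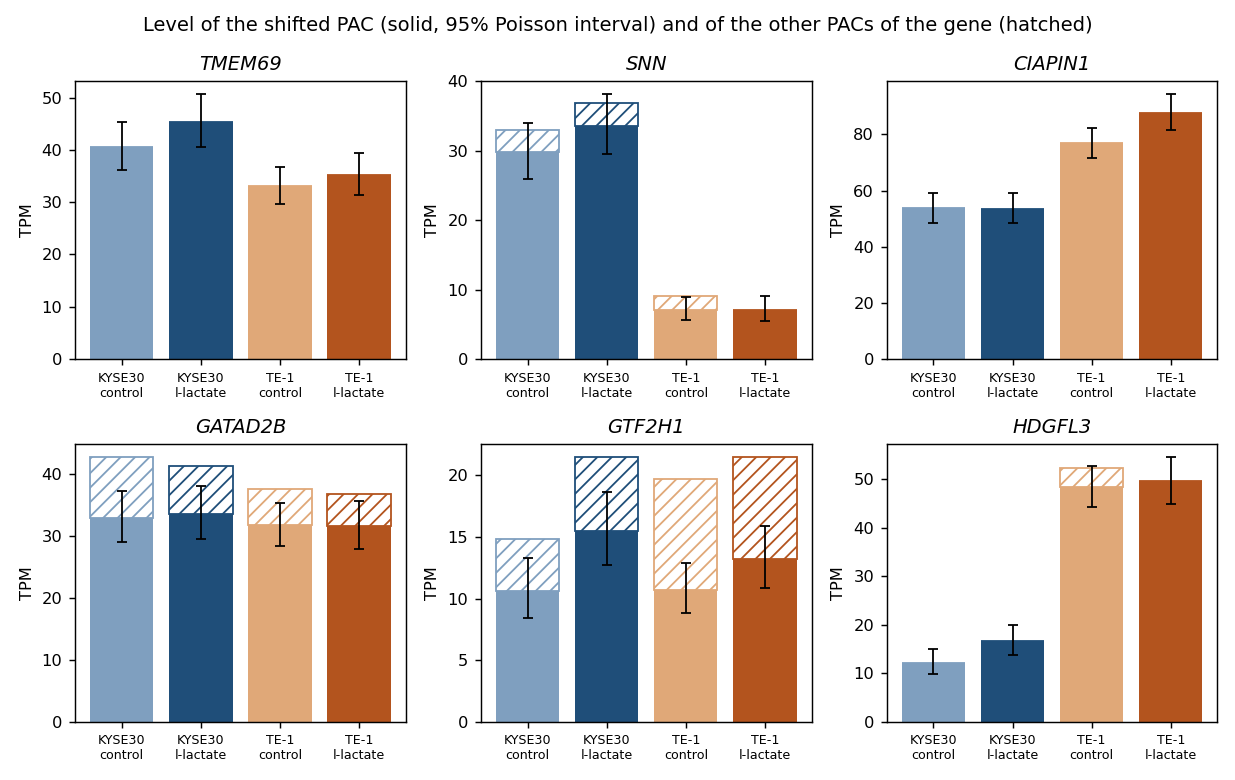
Level of each gene in the 4 libraries, in TPM. Solid bars are the shifted PAC with its 95% Poisson interval of counting error and hatched parts are the other PACs of the gene. HDGFL3 is highest in TE-1 and SNN in KYSE30, and within a line only GTF2H1 and HDGFL3 in KYSE30 and CIAPIN1 in TE-1 have ratios whose interval excludes 1. The share of all coding genes with such an interval was not worked out.

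The 5 further PACs show what else the genes used. GATAD2B has a second PAC of 1 position, 153804728, close to the annotated end of GATAD2B-201. It took 23.0% of the tags of the gene in the KYSE30 control (18.7% to 27.9%) and 18.9% with l-lactate (14.8% to 23.7%), and 15.6% (12.3% to 19.5%) and 14.1% (10.7% to 18.4%) in TE-1. The longest GATAD2B form was thus the minor one in all 4 libraries, and within each line the intervals of the conditions overlapped.

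GTF2H1 has a PAC at chr11:18348519-18348837, further upstream in the gene, with the same dominant site 18348743 in all 4 libraries. It was listed at 4.18 and 5.99 TPM in the KYSE30 control and l-lactate libraries (1.44 times, 0.884 to 2.36) and at 5.87 and 8.27 TPM in those of TE-1 (1.41 times, 0.985 to 2.02). Its share of the GTF2H1 tags was 28.2% and 27.9% in KYSE30 and 29.8% and 38.5% in TE-1. The ratios of its TPM were above 1 in both lines with intervals that held 1, whereas its share of the gene was nearly the same in KYSE30 and higher with l-lactate in TE-1, with overlapping intervals. Another PAC, of 1 position at 18338322, was listed only in the TE-1 control, with 33 tags. These are part of the 205 GTF2H1 tags of that library and so lower the share of 29.8%. The rise of the share in TE-1 thus rests in part on a PAC not listed with l-lactate.

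SNN has a second PAC at chr16:11676726-11676733, with 24 and 23 tags in the KYSE30 control and l-lactate libraries and 20 tags in the TE-1 control. It was not listed with l-lactate in TE-1. HDGFL3 has a second PAC at 83134125, further downstream, listed only in the TE-1 control, with 42 tags. The TE-1 control was the most deeply sequenced library, and why these PACs were listed only there was not tested. The single-position PACs of GTF2H1 and HDGFL3 stood at 3.175 and 4.04 TPM in it. The study methods removed lone sites below 3 TPM, so a PAC that was not listed can still have held tags. PACs that were not listed count as 0 in the summed levels above. With the shifted PAC alone, the TE-1 log2 ratios with l-lactate were -0.0062 in place of -0.31 for SNN, 0.04 in place of -0.08 for HDGFL3 and 0.28 in place of 0.12 for GTF2H1.

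Partners of the members in known complexes were looked up from lists. Of 15 NuRD genes, 14 were above 5 TPM in both libraries of a line. RBBP7, a histone-binding subunit, had a log2 ratio of -0.62 in KYSE30 (18.3 to 11.6 TPM) and -0.37 in TE-1 (54.2 to 41.8 TPM) and was the only NuRD gene past 0.5 in either line. Its PAC also moved by more than 24 nt in KYSE30. GATAD2A, the paralogue of GATAD2B, stood at 91.3 and 95.1 TPM in KYSE30 and at 136 and 134 TPM in TE-1, with no shift. The median log2 ratio of the list was 0.05 in KYSE30 and 0.07 in TE-1, against 0.0073 and 0.03 over all coding genes compared.

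Of 10 TFIIH genes, 6 could be compared in KYSE30 and 5 in TE-1. GTF2H1 was the only one past 0.5, in KYSE30, and the only one with a shift. Of 9 genes of cytosolic iron-sulfur assembly, 7 could be compared, and MMS19, which helps deliver iron-sulfur clusters to DNA-handling proteins, was the only one past 0.5, at -0.54 in KYSE30 (33.0 to 22.3 TPM) and -0.34 in TE-1 (20.9 to 16.3 TPM). CIAPIN1 was the only gene of that list with a shift. GTF2H1 and CIAPIN1 are members and were chosen by their shift, so nothing is read from their shifts within these lists. NDOR1, its partner, stood at 33.0 and 34.0 TPM in KYSE30 and at 34.9 and 40.7 TPM in TE-1. Of the 5 genes of the HDGF family, 3 could be compared and none passed 0.5. HDGF itself stood at 761 and 792 TPM in KYSE30 and at 1278 and 1241 TPM in TE-1, and no paralogue of HDGFL3 shifted.

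No other gene on the same strand overlapped any of the 11 PACs. On the opposite strand, IPP overlapped the PAC of TMEM69, TXNDC11 the shifted PAC of SNN and TM6SF1 both PACs of HDGFL3. The libraries were made with a kit that keeps strand, so their tags are counted apart.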

How the data were processed

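According to the methods of the study, trimmed reads were aligned to GRCh38 (GRCh38.p14 in the submitters' processing notes) with HISAT2, and poly(A) sites were called with CAGEr. Sites with TPM below 1 were dropped, sites within 24 nt were joined into PACs, lone sites with TPM below 3 were removed, and PACs with TPM above 5 within 500 nt were joined again. The deposited TPM are RPM values, scaled by the authors to the tags of the library. The tables number start positions from 0 and the text from 1.

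Here the 4 tables were joined on the PAC number. Tags were worked out from the step between TPM values: below 8 TPM, 100% of values were whole tags within 0.05. PACs not listed counted as 0 in gene sums. Shifts were l-lactate minus control along transcription, counted past 24 nt where both libraries had TPM above 5. These steps were checked on simulated data, in which the leading site held most tags of a PAC. In simulated PACs that did not move, the competitor lay less than 24 nt away. Competitors near in use and far apart, as in the members, were not simulated. How often counting error alone swaps such sites was thus not tested. Shares carry Wilson intervals, levels exact Poisson intervals and ratios exact binomial ones. Genes and transcript ends came from GENCODE 44 and sequence from GRCh38. All 12 identical shifts are named, with the 3 nearest in length among those that went the same way in both lines. From the lists (NuRD, TFIIH, iron-sulfur assembly, HDGF family, cell type markers), genes past the thresholds and paralogues are named, and NDOR1, P2RY11 and the genes with opposite shifts were named after their values were seen. Members and lists were chosen with earlier results of these data known. Alternatives changed the minimum TPM, shift length, position, pseudocount, scaling, PACs summed and interval. The tools were pysam 0.24.0 for sequence, SciPy 1.17.1 for intervals, pandas 2.3.3 and NumPy 2.4.6 for tables, and matplotlib 3.10.9 for plots, under Python 3.11.15. The shifting score of the study needs the tags at each position and was not analysed here.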

Additional observations from a re-analysis of the deposited data

Results flagged for a closer look

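In 3 of the 6 genes the single l-lactate to control comparison of each line pointed in opposite directions in gene level, and the difference between the lines was not tested. The log2 ratio with a pseudocount of 1 was -0.0057 in KYSE30 and 0.19 in TE-1 for CIAPIN1, 0.15 and -0.31 for SNN, and 0.42 and -0.076 for HDGFL3. For SNN and HDGFL3 a second PAC was listed in the TE-1 control and not with l-lactate, and without it the TE-1 values were -0.0062 and 0.04. HDGFL3 then has the same sign in both lines. CIAPIN1 in KYSE30 was 0.996 times the control (0.864 to 1.15), which gives no clear direction. How many of all coding genes had opposite signs was not worked out, so nothing is read from the count.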

How the results depend on the processing

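Most counts of PACs stayed within 1.5 times the values reported under every alternative run. The exceptions were the PACs shifted in TE-1 with the midpoint of the quantile positions, 212 in place of 134, and the identical shifts in both lines with a minimum TPM of 1, 20 in place of 12, an alternative that admits more PACs. With a minimum TPM of 10, identical shifts numbered 10, without SNN and IFT57, and with shifts over 100 nt also 10, without SNN and MARCHF6. The shifts of the 6 PACs rest on the dominant site. Of 36 values from the lower quantile, upper quantile or midpoint, 30 were 0 nt and 4 had the opposite sign: in TE-1 GATAD2B, -7 nt with the lower quantile and -3.5 nt with the midpoint, and in KYSE30 SNN, -5 nt with the upper quantile and -2.5 nt with the midpoint. The cause was not tested. Of the 36 gene levels under other pseudocounts, scaling or PACs, all lay within the counting interval of the reported value, 2 of them with the opposite sign. The number of genes past 0.5 stayed at 1 in KYSE30 and 0 in TE-1, the single gene being GTF2H1, close to that threshold. Exact intervals moved a bound of a dominant share by at most 0.944 percentage points. A fit of treatment with the line as a block would leave 1 residual degree of freedom and was not run. Depth limits the SNN values in TE-1 most, with 60 and 74 tags.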

Other observations

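In 4 PACs the same pair of sites changed places in both lines but in opposite directions with l-lactate. These were PACs of ZNHIT3, which moved 64 nt upstream in KYSE30 and 64 nt downstream in TE-1, SP100, 158 nt upstream in KYSE30 and downstream in TE-1, and ASXL2, 274 nt downstream in KYSE30 and upstream in TE-1, and a PAC outside coding genes that moved 107 nt upstream in KYSE30 and downstream in TE-1. In these PACs the site that led in the KYSE30 control was the one that led in TE-1 with l-lactate. They were chosen after their values were seen, and the difference between the lines was not tested.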
